A study of Bos indicus and Bos indicus x Bos taurus and Bos taurus with 6 samples.

Results

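The genes described here are 9 genes of heme synthesis, chosen by name from the deposited gene table: ALAS1, ALAS2, SLC25A38, ALAD, UROS, UROD, CPOX, PPOX and FECH. All 9 were found among the 21698 genes of the table, and each had at least 53 counts in every library. RNA was sequenced from jugular whole blood of cows kept on a university farm in Malaysia, with 2 biological replicates per breed, so n = 2 per breed throughout. By the labels, Kedah-Kelantan is heat-tolerant (an indigenous tropical Bos indicus breed). Brangus, a composite, is labelled as intermediate. Holstein Friesian, a temperate Bos taurus dairy breed, is labelled as heat-vulnerable. All cows were clinically healthy, non-pregnant, non-lactating adult females, 4.5 ± 1.2 years old and 450 ± 15 kg in weight on average. All were sampled under heat stress at the same temperature-humidity index of 44.68, so each comparison is between breeds and none is between heat loads. The submitters' design mentions 4 cows of each breed, whose relation to the 2 libraries is unclear. In the main test, p-values set a breed difference against the spread between replicate libraries, which was estimated over all 3 breeds together.

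Heme is made partly in mitochondria and partly in the cytosol. The pathway starts when 5-aminolevulinate synthase joins glycine to succinyl-CoA, and it ends when ferrochelatase puts iron into protoporphyrin. ALAS1 is the synthase that nearly all cells use and is the step that heme itself holds back, whereas ALAS2 is the synthase of developing red cells, which make most of the body's heme for haemoglobin. In blood, white cells also need heme for catalase, peroxidases, NADPH oxidase and the respiratory chain.

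Total counts ranged from 25275377 to 28668857 per library, and the 9 genes took 0.0127% to 0.0211% of them. The replicates of a breed differed by more than sampling noise in each breed. The median absolute log2 difference between replicates, over genes at a mean log2 CPM (counts scaled to library size) of at least 3, was 0.13 in Kedah-Kelantan cows, 0.18 in Brangus cows, and 0.48 in Holstein Friesian cows. The Holstein Friesian libraries stood apart from each other in white cell markers: the summed level of 12 monocyte markers was 1284 CPM in replicate 1 and 8477 CPM in replicate 2, and that of 11 B and plasma cell markers was 3009 and 190.2 CPM. In bulk blood, fewer cells of a type and less RNA per cell cannot be told apart.

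No heme synthesis gene passed the test between breeds, and FECH, UROS and CPOX had the largest differences relative to their error. Counts were tested with edgeR's quasi-likelihood F test over all 6 libraries, and a gene was called where its Benjamini-Hochberg adjusted p, taken over 13455 genes, was under 0.05. Between Kedah-Kelantan and Holstein Friesian 0 of the 9 were called, beside 0.00743% of all genes tested, and 2 of the 9 had an unadjusted p under 0.05, beside 4.04% of all genes. In Brangus against Holstein Friesian 0 of 9 were called, beside 0.00743% of all genes, and 1 had an unadjusted p under 0.05, beside 7.62%. In Kedah-Kelantan against Brangus 0 of 9 were called, beside 0% of all genes, and 3 had an unadjusted p under 0.05, beside 11.6%. The F test for any breed difference also called 0 of 9, beside 0% of all genes, while 3 had an unadjusted p under 0.05, beside 8.23%. DESeq2 called 0, 1 and 3 of the 9 genes in the 3 comparisons in the same order, beside 0.966%, 2.28% and 4.93% of all genes, and 3 for any breed difference, beside 4.65%. Limma on log2(FPKM + 0.1) called 0 heme synthesis genes in each comparison, beside 1, 1 and 0 of all 13455 genes.

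**Figure D1:**
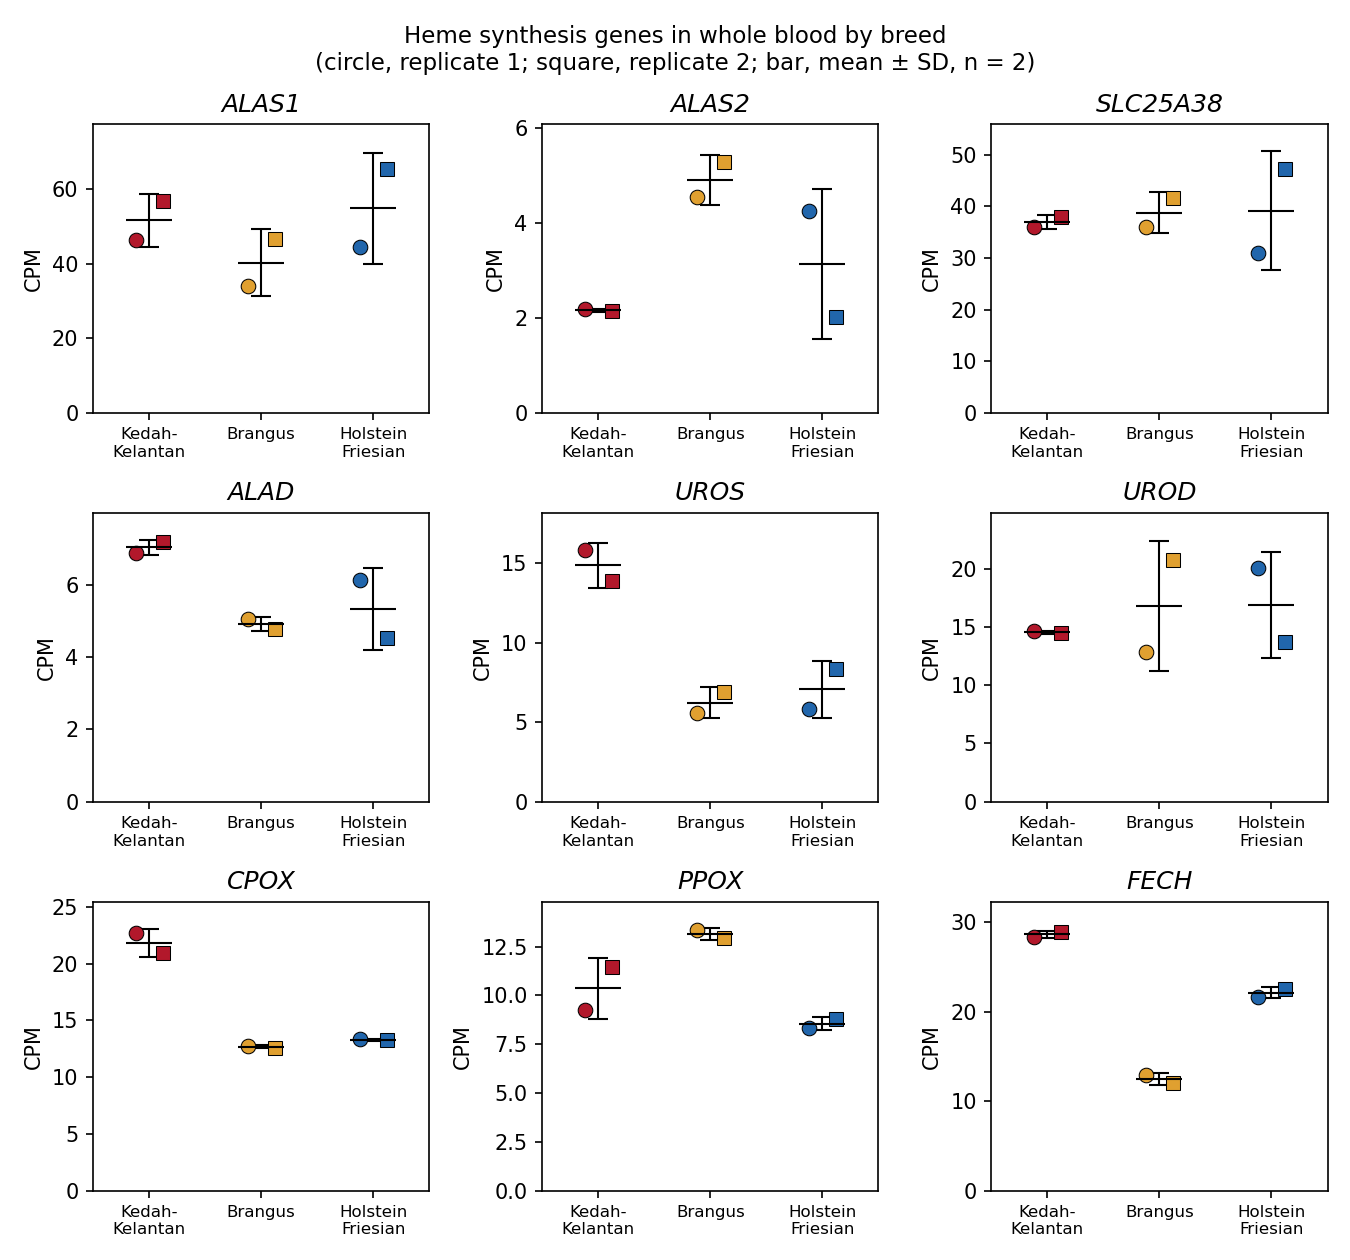
Level of each of the 9 genes in normalised counts (CPM, y axis from 0) by breed (x axis). Circles are replicate 1, squares are replicate 2, and bars give the mean ± SD of 2 libraries. FECH separates all 3 breeds, at 28.4 to 28.9 CPM in Kedah-Kelantan, 11.99 to 12.9 CPM in Brangus and 21.7 to 22.5 CPM in Holstein Friesian.

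Per gene length, ALAS1 was the most abundant of the 9 transcripts in 5 of 6 libraries, and ALAS2 was last or next to last in every library. Levels between genes are compared here in the authors' FPKM values, which are per kilobase. ALAS1 was 21.2 and 25.4 FPKM in Kedah-Kelantan, 12.9 and 17.5 FPKM in Brangus, and 18.9 and 25.1 FPKM in Holstein Friesian. In Brangus replicate 1 the glycine carrier gene SLC25A38 was above it, at 13.7 FPKM. ALAS2 was 1.25 and 1.20 FPKM in Kedah-Kelantan, 2.16 and 2.49 FPKM in Brangus, and 2.28 and 0.97 FPKM in Holstein Friesian. ALAS2 was the lowest of the 9 in both Kedah-Kelantan libraries and Holstein Friesian replicate 2, and UROS was the lowest in the other 3 libraries, at 1.56 to 1.92 FPKM.

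The rank of FECH among the 9 varied between libraries. FECH held rank 2 among the 9 in both Kedah-Kelantan libraries, at 18.1 FPKM in each, and held rank 4 in both Brangus libraries, at 6.84 and 6.27 FPKM. In Holstein Friesian it held ranks 4 and 3, at 12.9 and 12.1 FPKM. The ratio of FECH to PPOX, the genes of the last and the next-to-last enzyme, was 3.78 and 3.12 in Kedah-Kelantan cows, 1.20 and 1.15 in Brangus cows, and 3.23 and 3.17 in Holstein Friesian cows. On this ratio the Brangus libraries lay apart from the other 4. The ratio of ALAS1 to ALAS2 was 17.0 and 21.2 in Kedah-Kelantan cows, 5.95 and 7.02 in Brangus cows, and 8.30 and 25.9 in Holstein Friesian cows. The Holstein Friesian range of this ratio covered the Kedah-Kelantan range.

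**Figure D2:**
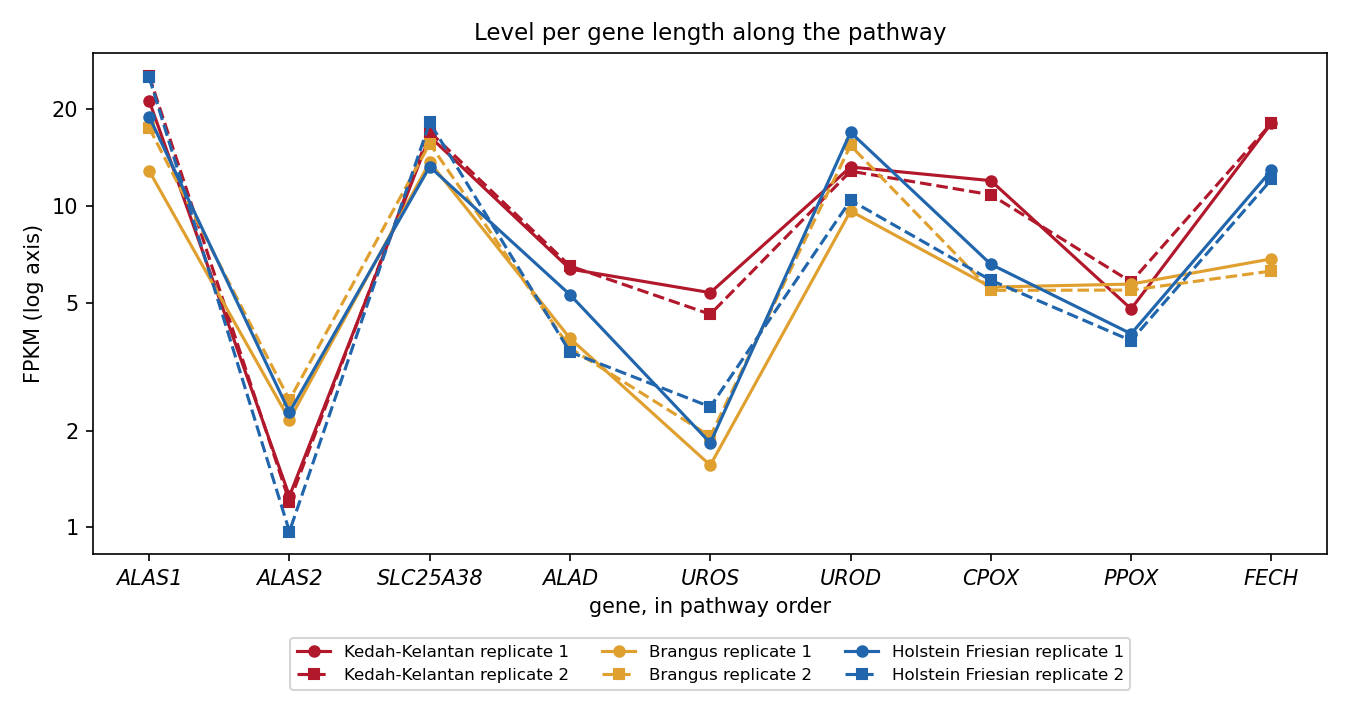
FPKM (log axis) of the 9 genes in pathway order (x axis), 1 line per library, with breeds by colour and replicates by line style. The lines run together at SLC25A38, the Kedah-Kelantan lines are the upper ones at UROS and CPOX, and at FECH the breeds separate, with 18.1 FPKM in both Kedah-Kelantan libraries, 6.27 to 6.84 FPKM in Brangus and 12.1 to 12.9 FPKM in Holstein Friesian.

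The first step of the pathway showed ALAS1 at similar levels with wide spread and ALAS2 at low levels that were highest in Brangus. ALAS1 (chromosome 22, 48689689 to 48703919, minus strand, as in the deposited table) was 46.5 and 56.7 CPM in Kedah-Kelantan, 33.9 and 46.7 CPM in Brangus, and 44.4 and 65.4 CPM in Holstein Friesian. The libraries of every pair of breeds overlapped. Its log2 fold change was -0.09 (SE 0.28) for Kedah-Kelantan against Holstein Friesian, 0.08 with total-count scaling, and -0.45 (SE 0.28) for Brangus against Holstein Friesian. It was 0.36 (SE 0.28) for Kedah-Kelantan against Brangus, and the edgeR adjusted p was 0.995, 0.675 and 0.656 in the same order. Without Holstein Friesian replicate 1 ALAS1 was called lower in Brangus (-0.71, adjusted p = 0.04, beside 16.8% of all genes called lower). Without replicate 2 it was -0.18 (adjusted p = 0.736) and not called, and the edgeR, DESeq2 and limma adjusted p ranged from 0.04 to 0.967 over all alternatives.

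ALAS2 (chromosome X, 92485200 to 92512358, minus strand) had 68 and 66 counts in Kedah-Kelantan cows, 106 and 123 in Brangus cows, and 127 and 53 in Holstein Friesian cows. In CPM these were 2.19 and 2.14 in Kedah-Kelantan cows, 4.54 and 5.28 in Brangus cows, and 4.26 and 2.01 in Holstein Friesian cows. In CPM both Brangus libraries were above the other 4, whereas in FPKM Holstein Friesian replicate 1 lay between them. The Holstein Friesian libraries lay at the level of Brangus in one case and of Kedah-Kelantan in the other. The log2 fold change was -0.53 (SE 0.52, 95% interval -1.83 to 0.76) for Kedah-Kelantan against Holstein Friesian and 0.64 (SE 0.51, -0.65 to 1.94) for Brangus against Holstein Friesian. For Kedah-Kelantan against Brangus it was -1.18 (SE 0.52, -2.49 to 0.13, edgeR adjusted p = 0.463). Without Holstein Friesian replicate 1 the first of these was 0.11, and without replicate 2 it was -1.02. The second was 1.28 and 0.17 in the same order.

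SLC25A38 (chromosome 22, 12645773 to 12660777, plus strand) encodes the mitochondrial carrier that brings glycine to the synthase in red cell precursors. It was 35.9 and 37.9 CPM in Kedah-Kelantan, 36.0 and 41.6 CPM in Brangus, and 31.0 and 47.3 CPM in Holstein Friesian. All breeds overlapped, and its breed means spanned 0.07 on the log2 scale, the smallest span of the 9 genes. The 95% interval of its log2 fold change was -0.71 to 0.54 for Kedah-Kelantan against Holstein Friesian, -0.64 to 0.61 for Brangus against Holstein Friesian and -0.70 to 0.55 for Kedah-Kelantan against Brangus. A 2-fold difference lies outside each of these intervals.

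Of the 5 genes whose profile over the 6 libraries was nearest to that of ALAS2, 4 encode mitochondrial proteins. The share of such genes among all candidates was not determined. Likeness was measured as the root mean square difference of centred log2 CPM over 6 libraries, among 11065 genes at a mean log2 CPM of at least 1, and it is a description without a test. The 5 nearest genes were UQCRH (0.060), a subunit of respiratory complex III, PFDN5 (0.066), a prefoldin subunit, TOMM5 (0.070), a part of the outer membrane import pore, COX6C (0.071), a cytochrome c oxidase subunit, and NDUFB3 (0.080), a complex I subunit. UQCRH was 131 and 144 CPM in Kedah-Kelantan, 294 and 341 CPM in Brangus, and 254 and 129 CPM in Holstein Friesian. HBB, the beta chain of haemoglobin, was 144 and 181 CPM in Kedah-Kelantan, 438 and 635 CPM in Brangus, and 94.99 and 229 CPM in Holstein Friesian. Its difference from ALAS2 was 0.82, a measure that takes in the size of a swing as well as its shape. Centred HBB ran from -1.29 to 1.45, and centred ALAS2 from -0.63 to 0.73. The 5 nearest genes were picked for their closeness, so HBB being farther than they were is not a result. HBB and ALAS2 were both highest in Brangus, but within Holstein Friesian HBB was higher in replicate 2 and ALAS2 in replicate 1. The 5 genes nearest to ALAS1 were LAT (0.076), an adaptor of T cell receptor signalling, STARD3 (0.081), a cholesterol transfer protein, SLC10A3 (0.083), PRICKLE3 (0.085) and SPRED2 (0.086), an inhibitor of RAS signalling.

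**Figure D3:**
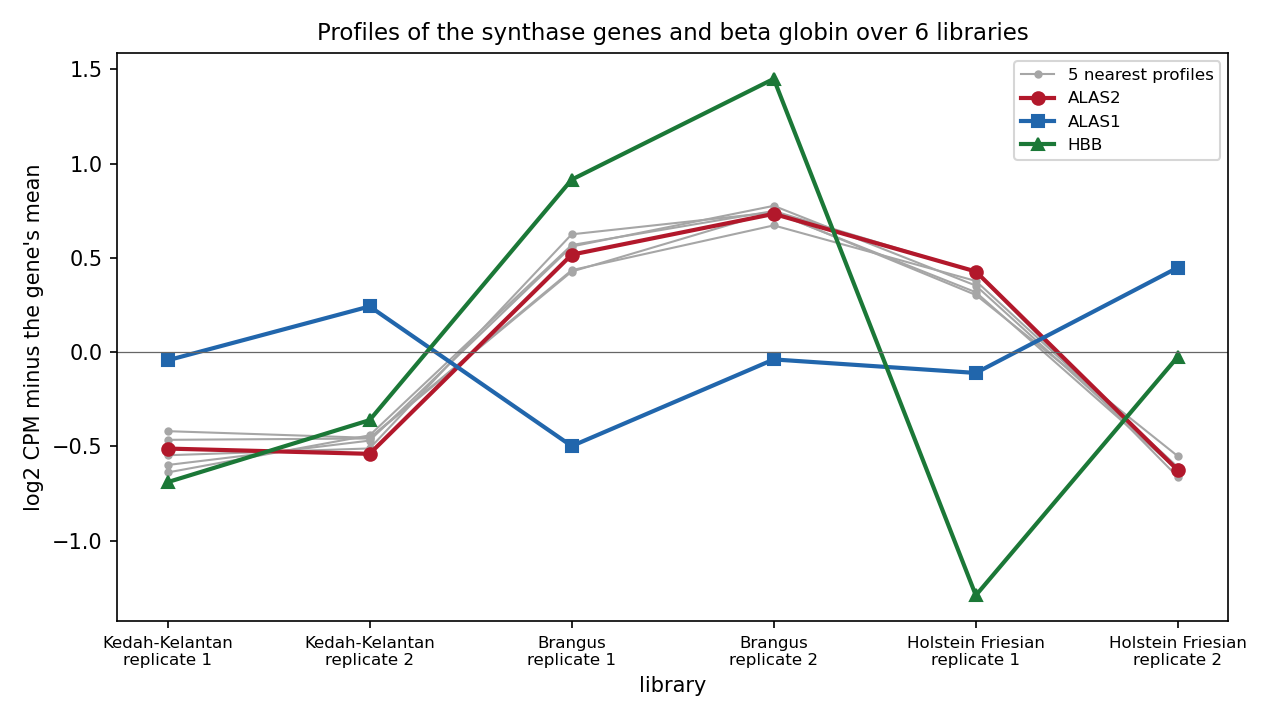
Log2 CPM minus the gene's own mean (y axis) in each of the 6 libraries (x axis) for ALAS2, ALAS1, HBB and, in grey, the 5 genes nearest to ALAS2. ALAS2 and its nearest genes lie above 0 in Brangus and in Holstein Friesian replicate 1, where HBB is at -1.29.

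The red cell transcripts SLC4A1 and CA1 were at or near 0, although the summed level of the 20 tested erythroid markers was 1198 and 1168 CPM in Kedah-Kelantan, 968 and 968 CPM in Brangus, and 676 and 2167 CPM in Holstein Friesian. SLC4A1, the anion exchanger band 3, had 3 and 8 counts in Kedah-Kelantan cows, 4 and 15 in Brangus cows, and 0 and 4 in Holstein Friesian cows. CA1, red cell carbonic anhydrase, had 0 counts in all 6 libraries. Of 31 erythroid markers in the table, 20 were tested, and 8 of these had a mean log2 CPM of at least 3. Among the tested markers, ALOX15, which eosinophils also express, had 5550 and 5639 counts in Kedah-Kelantan cows, 3 and 0 in Brangus cows, and 7 and 16142 in Holstein Friesian cows. ALOX15 is part of the mean log2 level of the tested markers. Set against that mean, ALAS2 on the log2 scale was at -2.14 and -2.21 in Kedah-Kelantan, at -0.65 and -0.37 in Brangus, and at -0.09 and -2.74 in Holstein Friesian. Against the mean of the 8 more abundant markers it was at -5.28 and -5.36 in Kedah-Kelantan, at -4.11 and -3.90 in Brangus, and at -3.19 and -5.96 in Holstein Friesian. With both sets the Holstein Friesian libraries spanned the other 4.

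Of the enzymes of the cytosolic steps, UROS was highest in Kedah-Kelantan, ALAD was slightly higher there, and UROD did not separate the breeds. UROS (chromosome 26, 45300454 to 45324547, minus strand), uroporphyrinogen III synthase, closes the tetrapyrrole ring in the orientation that heme needs. It had 493 and 427 counts in Kedah-Kelantan cows, 130 and 161 in Brangus cows, and 173 and 219 in Holstein Friesian cows, or 15.9 and 13.9 CPM, 5.57 and 6.92 CPM, and 5.81 and 8.33 CPM. Both Kedah-Kelantan libraries were above the other 4, while Brangus and Holstein Friesian overlapped. The log2 fold change was 1.07 (SE 0.32, 95% interval 0.27 to 1.87, edgeR adjusted p = 0.995) for Kedah-Kelantan over Holstein Friesian and 1.25 (SE 0.32, 0.45 to 2.06, adjusted p = 0.353) for Kedah-Kelantan against Brangus. For Brangus against Holstein Friesian it was -0.18 (SE 0.32), and 0.07 without Holstein Friesian replicate 2. Without that library UROS was called higher in Kedah-Kelantan than in Holstein Friesian (1.31, adjusted p = 0.0332, beside 6.56% of all genes called higher). Without Holstein Friesian replicate 1 it was 0.84 (edgeR adjusted p = 0.102) and not called, and over all alternatives the adjusted p of this comparison ranged from 0.0332 to 1.

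ALAD (chromosome 8, 102642378 to 102652289, minus strand), the enzyme that condenses aminolevulinate to porphobilinogen and that lead inhibits, was 6.89 and 7.18 CPM in Kedah-Kelantan, 5.05 and 4.77 CPM in Brangus, and 6.14 and 4.52 CPM in Holstein Friesian. The Kedah-Kelantan libraries were above the other 4, and its log2 fold change was 0.40 (SE 0.34, 95% interval -0.46 to 1.26) against Holstein Friesian, which became 0.64 without Holstein Friesian replicate 1 but 0.15 without replicate 2, and 0.52 (SE 0.34, -0.34 to 1.379) against Brangus. UROD (chromosome 3, 101034183 to 101037522, minus strand), uroporphyrinogen decarboxylase, was 14.6 and 14.5 CPM in Kedah-Kelantan, 12.8 and 20.8 CPM in Brangus, and 20.1 and 13.7 CPM in Holstein Friesian. The Kedah-Kelantan libraries lay inside the range of both other breeds, whose replicates differed by 0.69 in Brangus and 0.55 in Holstein Friesian on the log2 scale. The largest log2 fold change of UROD was -0.22 (SE 0.34), for Kedah-Kelantan against Holstein Friesian, and it was 0.09 without Holstein Friesian replicate 1.

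The last 3 enzymes work at or in the mitochondrion, and in CPM their genes were the ones among the 9 whose libraries did not overlap between any 2 breeds. This held for 3 of 9 genes, beside 10.1% of all genes tested. For PPOX it depended on the scaling: in FPKM its Kedah-Kelantan libraries, at 4.78 and 5.80, overlapped its Brangus libraries, at 5.71 and 5.47. CPOX and FECH were highest in Kedah-Kelantan and lowest in Brangus. PPOX was lowest in Holstein Friesian in both units, and in CPM it was highest in Brangus.

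FECH (chromosome 24, 56787248 to 56822085, minus strand), ferrochelatase, inserts the iron and carries an iron-sulfur cluster. It had 881 and 890 counts in Kedah-Kelantan cows, 302 and 279 in Brangus cows, and 646 and 593 in Holstein Friesian cows. In CPM it was 28.4 and 28.9 in Kedah-Kelantan cows, 12.9 and 11.99 in Brangus cows, and 21.7 and 22.5 in Holstein Friesian cows. Replicates differed by 0.03, 0.11 and 0.06 on the log2 scale in the same order, against a span of breed means of 1.20. For Kedah-Kelantan against Brangus the log2 fold change was 1.20 (SE 0.19, 95% interval 0.72 to 1.68), a ratio of 2.30, and by p it ranked 37 of 13455 genes, with an edgeR adjusted p of 0.351. For Brangus against Holstein Friesian it was -0.83 (SE 0.19, -1.30 to -0.35, edgeR adjusted p = 0.641), which was rank 114. Between Kedah-Kelantan and Holstein Friesian it was 0.37 (SE 0.19, -0.10 to 0.84, edgeR adjusted p = 0.995). Over the alternatives the first log2 fold change lay between 1.15 and 1.46, the second between -0.93 and -0.82 and the third between 0.33 and 0.53.

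CPOX (chromosome 1, 42888156 to 42901415, minus strand), coproporphyrinogen oxidase of the intermembrane space, had 705 and 644 counts in Kedah-Kelantan cows, 298 and 293 in Brangus cows, and 398 and 348 in Holstein Friesian cows. In CPM it was 22.7 and 20.9 in Kedah-Kelantan cows, 12.8 and 12.6 in Brangus cows, and 13.4 and 13.2 in Holstein Friesian cows. Brangus and Holstein Friesian were separate by a small margin, with a log2 fold change of -0.07 (SE 0.21), whereas Kedah-Kelantan lay well above both. The log2 fold change was 0.71 (SE 0.21, 95% interval 0.20 to 1.23, edgeR adjusted p = 0.995) for Kedah-Kelantan over Holstein Friesian and 0.78 (SE 0.21, 0.26 to 1.30, adjusted p = 0.353) for Kedah-Kelantan against Brangus. PPOX (chromosome 3, 8326939 to 8330785, minus strand), protoporphyrinogen oxidase, was 9.27 and 11.5 CPM in Kedah-Kelantan, 13.4 and 12.9 CPM in Brangus, and 8.32 and 8.78 CPM in Holstein Friesian. Its largest log2 fold change was 0.62 (SE 0.26, 95% interval -0.02 to 1.26, edgeR adjusted p = 0.654), for Brangus against Holstein Friesian. For Kedah-Kelantan against Brangus it was -0.34 (SE 0.26), but -0.081 with total-count scaling and -0.084 with FPKM.

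**Figure D4:**
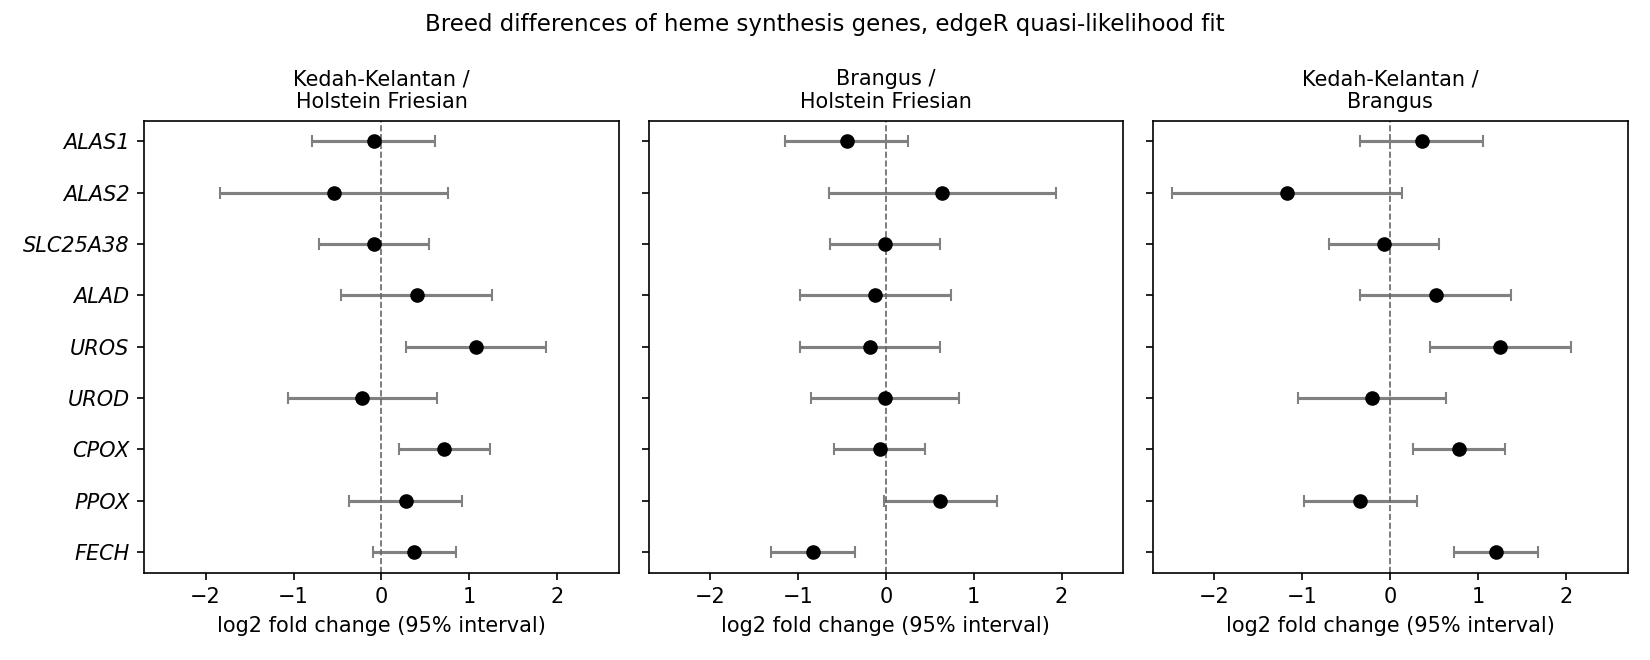
Log2 fold change (x axis) with its 95% interval for the 9 genes (y axis, pathway order) in the 3 comparisons, from the edgeR fit over 6 libraries. The intervals of UROS and CPOX lie above 0 in both Kedah-Kelantan comparisons, and that of FECH lies above 0 for Kedah-Kelantan against Brangus and below 0 for Brangus against Holstein Friesian. No gene had an adjusted p under 0.05.

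Seen by comparison, the median of the 9 genes lay above that of all genes in both Kedah-Kelantan comparisons and close to it in Brangus against Holstein Friesian. In Kedah-Kelantan against Holstein Friesian 5 genes were higher and 4 lower, with a median log2 fold change of 0.28 beside -0.03 over all genes tested. The libraries of 5 genes did not overlap, beside 30.7% of all genes. All 5 were higher, beside 18.1%, and 0 were lower, beside 12.6%. In Brangus against Holstein Friesian 2 genes were higher and 7 lower (median -0.07, beside -0.03 over all genes). Of these, 4 did not overlap, beside 34.3% of all genes, with 2 on the higher side, ALAS2 and PPOX, beside 18.4%, and 2 on the lower side, CPOX and FECH, beside 15.9%. Between Kedah-Kelantan and Brangus 5 had a higher and 4 a lower level in Kedah-Kelantan (median 0.36, beside 0.02). Here 6 did not overlap, beside 64.2% of all genes, with 4 on the higher side, beside 33.5%, and 2 on the lower side, ALAS2 and PPOX, beside 30.7%. The comparisons share libraries, so their values are given side by side and not as repeats of each other.

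The call of FECH, UROS and CPOX between Kedah-Kelantan and Brangus depended on the fit. With only Kedah-Kelantan and Brangus in the fit, edgeR called all 3 genes higher in Kedah-Kelantan. FECH had a log2 fold change of 1.21 (adjusted p = 0.00412), UROS of 1.26 (adjusted p = 0.0132) and CPOX of 0.79 (adjusted p = 0.0243). In that fit 9.09% of all 13147 genes were called higher and 10.2% lower. The same 3 genes were called without Holstein Friesian replicate 1 and without replicate 2, where 8.35% and 7.92% of all genes were called higher. With any Kedah-Kelantan or Brangus library left out, 0 of the 9 genes and 0 genes overall were called. DESeq2 called all 3 higher, beside 2.19% of all genes called higher and 2.74% called lower. Over all alternatives the adjusted p ranged from 2.63e-07 to 1 for FECH, from 0.0127 to 1 for UROS and from 0.00551 to 1 for CPOX. FECH was also called lower in Brangus than in Holstein Friesian by DESeq2 (-0.86, adjusted p = 0.00159, beside 1.2% of all genes called lower) and without Holstein Friesian replicate 1 (-0.86, adjusted p = 0.0138, beside 16.8%), but not without replicate 2. Against Holstein Friesian, Kedah-Kelantan had 0 of the 9 genes called without Holstein Friesian replicate 1, beside 17.5% of all genes called (6.8% higher and 10.7% lower).

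Summed levels of some white cell and platelet markers also differed between Kedah-Kelantan and Brangus, which FECH, UROS and CPOX separated. EdgeR called 0 members of these marker lists in each comparison. Of all 13455 genes it called 1 in each comparison with Holstein Friesian and 0 for Kedah-Kelantan against Brangus. Between these breeds the libraries of 64.2% of all genes did not overlap. The summed level of 8 tested eosinophil, basophil and mast cell markers was 451 and 469 CPM in Kedah-Kelantan, 49.6 and 42.9 CPM in Brangus, and 43.0 and 1337 CPM in Holstein Friesian. That of 11 NK and cytotoxic markers was 1036 and 1141 CPM in Kedah-Kelantan, 612 and 675 CPM in Brangus, and 1361 and 435 CPM in Holstein Friesian. That of 9 platelet markers was 300 and 347 CPM in Kedah-Kelantan, 1287 and 1417 CPM in Brangus, and 419 and 552 CPM in Holstein Friesian, and the 13 neutrophil markers summed to 2435 and 2597, 2592 and 4121, and 787 and 7811 CPM in the same order of libraries. The 11 B and plasma cell markers summed to 1854 and 2006 CPM in Kedah-Kelantan, 3035 and 2696 CPM in Brangus, and 3009 and 190.2 CPM in Holstein Friesian. Neutrophil sums overlapped between Kedah-Kelantan and Brangus, and the 12 T cell markers stayed within 2928 to 3789 CPM. The part of these marker sums in the differences of FECH, UROS and CPOX between breeds was not tested.

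Among themselves the 9 genes did not move as 1 block. The smallest root mean square differences of centred log2 CPM were between ALAD and CPOX (0.19), ALAS1 and SLC25A38 (0.23), and UROS and CPOX (0.27), and that between CPOX and FECH was 0.31. ALAS2 was the farthest from the other members, with a mean difference of 0.76 beside 0.41 to 0.59 for the other 8, and its largest were to UROS (1.09) and FECH (1.03). These values describe 6 shared libraries and carry no test.

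Genes that feed the pathway or move its intermediates had no member called by edgeR in any comparison. Over all 13455 genes it called 1 for Kedah-Kelantan against Holstein Friesian, 1 for Brangus against Holstein Friesian and 0 for Kedah-Kelantan against Brangus. The median log2 fold change of all genes was -0.03, -0.03 and 0.02 in the same order. Of 21 such partner genes, all tested, 10 had a higher and 11 a lower level in Kedah-Kelantan cows than in Holstein Friesian cows (median log2 fold change -0.03), 16 were higher and 5 lower in Brangus than in Holstein Friesian (median 0.21), and 5 had a higher and 16 a lower level in Kedah-Kelantan than in Brangus (median -0.22). The members with the smallest p in the test of any breed difference, none of which passed, were PGRMC1, ISCU and SUCLA2. PGRMC1, a heme-binding membrane protein that associates with ferrochelatase, was 34.9 and 43.1 CPM in Kedah-Kelantan, 58.7 and 57.0 CPM in Brangus, and 43.0 and 36.6 CPM in Holstein Friesian. ISCU, the scaffold of iron-sulfur clusters, was 58.7 and 68.3, 83.2 and 86.5, and 51.7 and 64.5 CPM in the same breeds, and SUCLA2, a subunit of succinyl-CoA synthetase, was 47.8 and 50.3, 66.8 and 68.1, and 59.2 and 54.1 CPM. All 3 were highest in Brangus, in a list where 16 of 21 genes were higher in Brangus than in each other breed.

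Iron supply genes and genes of heme export, breakdown and sensing also had 0 called members by edgeR in each comparison. Over all 13455 genes edgeR called 1, 1 and 0, with comparisons in the order used below. The median log2 fold change of all genes was -0.03, -0.03 and 0.02 in that order. Of 17 tested iron genes 4 were higher in Kedah-Kelantan cows than in Holstein Friesian cows (median -0.26), 7 in Brangus than in Holstein Friesian (median -0.16) and 8 in Kedah-Kelantan than in Brangus (median -0.11). FTL, the ferritin light chain, was 230 and 270 CPM in Kedah-Kelantan, 355 and 557 CPM in Brangus, and 215 and 439 CPM in Holstein Friesian, with all breeds overlapping except Kedah-Kelantan and Brangus. NCOA4, the receptor for ferritin breakdown, and ACO1, an iron-regulatory protein, were each highest in Holstein Friesian replicate 2, at 255 and 35.5 CPM. Of 19 tested genes of the heme export list 5 were higher in Kedah-Kelantan cows than in Holstein Friesian cows (median -0.35), 3 in Brangus than in Holstein Friesian (median -0.52) and 15 in Kedah-Kelantan than in Brangus (median 0.30). FLVCR1, a heme exporter of the plasma membrane that has also been described as a choline transporter, was 53.6 and 51.2 CPM in Kedah-Kelantan, 31.2 and 36.0 CPM in Brangus, and 47.1 and 42.8 CPM in Holstein Friesian. Its breeds were ordered as those of FECH, with no overlap, and its log2 fold change was 0.64 (SE 0.17, edgeR adjusted p = 0.354) for Kedah-Kelantan against Brangus. HMOX1, the inducible heme oxygenase, was 15.1 and 17.0 CPM in Kedah-Kelantan, 30.3 and 14.1 CPM in Brangus, and 20.1 and 69.0 CPM in Holstein Friesian. HP, haptoglobin, was 41.3 and 54.5, 7.54 and 11.8, and 7.32 and 306 CPM in the same breeds. HMOX1 and HP were both highest in Holstein Friesian replicate 2. That library also had the highest marker sums for monocytes, for neutrophils, and for eosinophils, basophils and mast cells. Any link of HMOX1 or HP to these sums was not tested.

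Globins, erythroid markers and regulators of ALAS1 had no member called by edgeR either, beside 1, 1 and 0 of all 13455 genes. The median log2 fold change of all genes was -0.03, -0.03 and 0.02. Both are given with comparisons in the order used below. Of 5 tested genes of the globin list, 2 were higher in Kedah-Kelantan cows than in Holstein Friesian cows (median -0.09), 5 in Brangus than in Holstein Friesian (median 1.73) and 0 in Kedah-Kelantan than in Brangus (median -0.98). For HBB the log2 fold change of Brangus over Holstein Friesian was 1.73 (SE 0.46, edgeR adjusted p = 0.645), and that of Kedah-Kelantan over Brangus was -1.72 (SE 0.46, adjusted p = 0.359). HBG had 17 and 17 counts in Kedah-Kelantan cows, 7 and 38 in Brangus cows, and 1 and 0 in Holstein Friesian cows. AHSP, the chaperone of alpha globin, had 4 and 0, 11 and 14, and 4 and 0 counts. Some globin genes are near-identical copies of each other, so the split of reads among those copies is uncertain. Of 20 tested erythroid markers, 8 were higher in Kedah-Kelantan cows than in Holstein Friesian cows (median -0.18), 10 in Brangus than in Holstein Friesian (median 0.01) and 9 in Kedah-Kelantan than in Brangus (median -0.19). TRIM58, a ubiquitin ligase of late red cell precursors, was 2.00 and 2.40 CPM in Kedah-Kelantan, 4.58 and 6.83 CPM in Brangus, and 0.973 and 1.94 CPM in Holstein Friesian, and ANK1, red cell ankyrin, was 1.62 to 1.93, 4.02 to 4.12 and 1.56 to 2.89 CPM. TRIM58 and ANK1 were highest in the Brangus libraries, while ALOX15, the other erythroid marker among the 3 with the smallest p, was lowest there, and edgeR called none of them. Of 5 tested regulators of ALAS1 4, 3 and 4 were higher in the 3 comparisons in the same order (medians 0.02, 0.21 and 0.15). NRF1, an activator of mitochondrial genes, was 54.4 and 51.6 CPM in Kedah-Kelantan, 53.1 and 48.5 CPM in Brangus, and 44.5 and 37.0 CPM in Holstein Friesian, PPARGC1B was lowest in Holstein Friesian replicate 2, at 23.5 CPM, and ESRRA, a nuclear receptor, was between 39.4 and 56.3 CPM.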

How the data were processed

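The deposited counts are whole-number reads per gene, not normalised, and the deposited FPKM values are the authors' own, scaled by gene length and depth. Listed in the submitters' processing notes are build ARS-UCD1.2, HISAT2 2.2.1, featureCounts 2.0.1, Trimmomatic 0.39, FastQC 0.11.9 and DESeq2 1.38.0. Roles, settings and strandedness: not given in the sources used here. Gene positions are those of the deposited table.

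Counts were fitted in R 4.3.3 with edgeR 4.0.16 (TMM, filterByExpr, robust quasi-likelihood, breed as the term, all 6 libraries, 3 residual degrees of freedom, common biological coefficient of variation 0.43). The fit was also run on simulated counts in which all breeds had the same spread. That run does not bear on the wider spread of the Holstein Friesian replicates. Each SE was obtained by dividing the fold change (log2) by the root of its F. CPM values use the TMM-scaled library size, and log2 CPM used a prior count of 2. Alternatives used DESeq2 1.42.0, limma 3.58.1 on log2(FPKM + 0.1), other scalings and filters, a replicate block and each library left out. From each related list the members called in a comparison, or else the 3 with the smallest p in the test of any breed difference, are named. Members and lists were chosen with earlier results of these data known. The listed genes do not cover every step of the pathway, and no sequence was used here.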

Additional observations from a re-analysis of the deposited data

How the results depend on the processing

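With a replicate block 0 of the 9 genes were called in every comparison, as without it, and 0 genes overall were called in each, against 1, 1 and 0 without it (comparisons in the order Kedah-Kelantan then Brangus against Holstein Friesian, and then Kedah-Kelantan against Brangus). Replicate deviations of 9112 genes correlated by -0.01, 0.20 and 0.06 in that order. With 1 deviation per breed for each gene, these values cannot show whether the replicate numbers pair the libraries. Genes called overall were 130, 307 and 663 with DESeq2 (625 for any breed difference), and 0, 0 and 2537 with only the 2 breeds compared. They were 0 and 0 in the first and second comparison with a mean count of at least 50, 0 for Brangus against Holstein Friesian with size factors, and 1 for any breed difference with no filter and with FPKM. Heme synthesis genes called were 1 and 3 with DESeq2 in the comparisons that involve Brangus, 3 for any breed difference, and 3 for Kedah-Kelantan against Brangus with only these breeds. Leaving out 1 library gave 0 to 2464, 0 to 4395 and 0 to 2458 genes overall (0 to 4783 for any breed difference), and 0 to 1, 0 to 2 and 0 to 3 of the 9 genes (0 to 3). The higher counts came without a Holstein Friesian library, and a breed left with 1 library is then assumed to vary like the others.

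Some signs turned. Total-count scaling moved the median of all genes to 0.12, -0.14 and 0.29, and with it and with FPKM the values were 0.082 and 0.090 for ALAS1 and 0.090 and 0.11 for SLC25A38 in Kedah-Kelantan against Holstein Friesian, and 0.19 and 0.19 for SLC25A38 and 0.056 and 0.093 for UROD in Kedah-Kelantan against Brangus. With the block SLC25A38 was 0.0080 in Brangus against Holstein Friesian. Without 1 library, the ranges in Kedah-Kelantan against Holstein Friesian were -0.34 to 0.18 for ALAS1, -1.02 to 0.11 for ALAS2, -0.35 to 0.21 for SLC25A38 and -0.51 to 0.088 for UROD. In Brangus against Holstein Friesian they were -0.36 to 0.11 for ALAD, -0.29 to 0.28 for SLC25A38, -0.44 to 0.29 for UROD and -0.42 to 0.066 for UROS, and in Kedah-Kelantan against Brangus -0.18 to 0.040 for SLC25A38 and -0.52 to 0.18 for UROD. The cause was not tested. FECH, CPOX and PPOX kept their sign in every alternative run. At 53 to 127 counts, ALAS2 is the member most limited by depth.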
